A study of Mus musculus with 80 samples.

Results

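Microglia that had been isolated on magnetic beads were compared with microglia that went through the same beads and then through a second, fluorescence-gated sort, to measure what the added sort changed in the whole transcriptome. The 7 libraries of this comparison, of 80 in the study, were taken by their sample names. They were 4 autoMACS-Input libraries, from animals 66, 67, 72, and 73, and 3 autoMACS to Tyto-Input libraries, from animals 66, 67, and 73. A second-sort library of animal 72 was not analysed here. All animals of both groups, and of the other sort groups named below, carried Cx3cr1(Jung)-cre/Ert2 and the NuTRAP allele and received tamoxifen at 100 mg/kg daily at about 3 months of age, and their brains were dissociated enzymatically and mechanically. There was no untreated or wild-type group. The replicates were separate mice, and animals 66, 67, and 73 gave libraries to both groups. The sources do not state whether the 2 libraries of a mouse came from the same cells or hemisphere.

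Microglia are the resident macrophages of the brain parenchyma. They carry CD11b, the integrin chain encoded by *Itgam*, and the pan-leukocyte phosphatase CD45, encoded by *Ptprc*, but both proteins are shared with monocytes, neutrophils, natural killer cells, and macrophages at the borders of the brain. The autoMACS step keeps cells that hold CD11b microbeads in a magnetic column. The MACSQuant Tyto, a cartridge-based sorter, was gated on cells positive for CD11b, CD45, and the eGFP that the NuTRAP allele places on ribosomes after recombination. The Cre driver is active in any cell that uses the *Cx3cr1* promoter, so border macrophages can be labelled with microglia. Input is the RNA saved from the cleared homogenate before the translating ribosome affinity purification (TRAP) pull-down, so that it holds RNA of every cell type left in the sort. In such bulk RNA, fewer cells of a type and less RNA per cell cannot be told apart.

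Total expected counts ranged from 7129451 to 18514971 in autoMACS-Input and from 8447499 to 12713497 in autoMACS to Tyto-Input. Genes with over 3 counts numbered 13019 to 13653 and 12591 to 12875. A count of 3 corresponded to between 0.162 and 0.421 CPM, the normalized counts scaled to a common library size, so levels under about 1 CPM rest on few reads. The deviating libraries were 1 in each group. The first principal component of the 7 libraries held 55.4% of the variance and placed autoMACS-Input of animal 72, the shallowest library, at 78.4, with the other 6 between -26.8 and 3.40. The autoMACS to Tyto-Input library of animal 73 held haemoglobin transcripts that the other 6 libraries held at far lower levels. Levels of *Xist* and *Ddx3y* placed animals 66 and 67 as male and 72 and 73 as female, so the groups had 2 males and 2 females against 2 males and 1 female.

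Of 15076 genes tested, 152 (1.01%) were called different in autoMACS to Tyto-Input against autoMACS-Input, at a Benjamini-Hochberg false discovery rate (FDR) under 0.1 and a fold change above 2. Of these, 50 genes (0.332%) were higher and 102 genes (0.677%) were lower after the second sort. In 138 of the 152 genes the libraries of the groups did not overlap, and 141 had the same sign in all 3 animals. These genes were selected on the same libraries, so both counts follow largely from the selection and are no support of their own. The share of all genes with the same sign in the 3 animals was not counted. For reference, 1036 genes (6.87% of all tested) had all 3 autoMACS to Tyto-Input libraries above all 4 autoMACS-Input libraries, and 896 (5.94%) had all 3 below. With animals 66, 67, and 73 compared as pairs, 142 of 12179 genes (1.17%) were called, of which 56 (0.46%) were higher and 86 (0.706%) were lower, and 56 genes were called in both fits. The 152 calls use a spread estimated over all 20 Input libraries of the sort comparison. With only the 4 sorted groups in the fit 73 genes were called, and with only the 2 groups compared 0 were. The count of calls also depended on single libraries. It was 70 without autoMACS-Input of animal 72, 497 without that of animal 66, 258 without that of animal 73, and 63, 15, and 7 without autoMACS to Tyto-Input of animals 66, 67, and 73. Without autoMACS-Input of animal 72 and autoMACS to Tyto-Input of animal 73 together, 27 genes were called. The sign of the change was the same in at least 148 of the 152 genes in each fit that left out libraries, and in all 127 of them that were fitted as pairs. These fits reuse the libraries on which the genes were selected, so this too follows largely from the selection and is no support of its own. The share over all genes was not counted. Among all 15076 genes, 52.9% had a negative log2 fold change, which is the background for the counts of signs given below. For counts of called genes the background is 0.332% higher and 0.677% lower, and as pairs 0.46% and 0.706%.

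**Figure D1:**
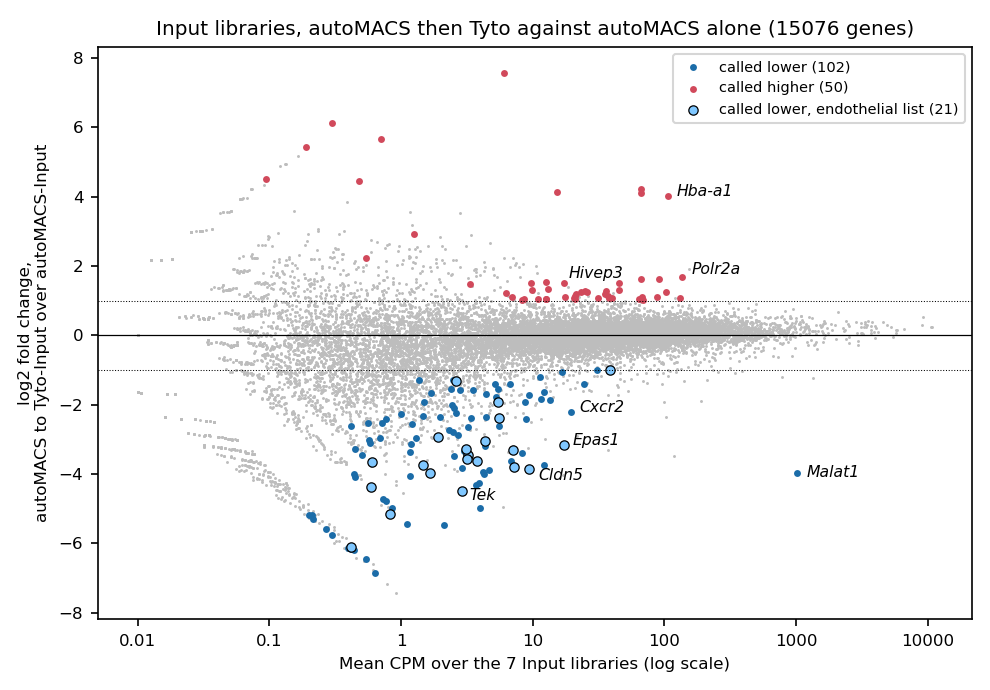
Each point is a gene, with its mean CPM over the 7 Input libraries on a log scale (x axis) and its log2 fold change, autoMACS to Tyto-Input over autoMACS-Input (y axis), and dotted lines mark a fold change of 2. Of the 50 genes called higher 42 have a mean of at least 5 CPM, and of the 102 called lower 27 do, and 21 of the genes called lower are on the endothelial list.

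Of the lists examined, that of the brain vasculature held the largest number of genes called lower. Some shorter lists had larger shares, such as 2 of 11 lymphocyte and natural killer cell genes. Of these 2, *Gzma* passed the count filter only through autoMACS-Input, the group where it was higher. Of 235 endothelial markers tested, 21 were called lower and 0 higher, against 0.677% of all genes called lower. Its median log2 fold change was -0.62 (-0.60 with genes at 0 counts in a group set to the bound that 3 counts allow), beside -0.03 for all genes tested. For 27.2% of its genes all 3 autoMACS to Tyto-Input libraries were below all 4 autoMACS-Input libraries, beside 5.94% of all genes and 44.4% of the ependymal and choroid plexus list. Compared as pairs, 24 of 183 markers were called lower, with a median of -0.32, and 11 of 235 were called lower without animal 72 of autoMACS-Input. The summed level of the list did not separate the groups (6896 to 9226 CPM in autoMACS-Input and 9071 to 9332 CPM in autoMACS to Tyto-Input).

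*Cldn5*, on chromosome 16 at 18776847-18778262 (mm10), encodes claudin-5, the main tight junction protein of the blood-brain barrier. It was at 11.8, 19.3, 23.4, and 8.04 CPM in autoMACS-Input of animals 66, 67, 72, and 73, and at 1.15, 0.531, and 1.66 CPM in autoMACS to Tyto-Input of animals 66, 67, and 73. The groups did not overlap, and every mouse with both libraries was lower after the second sort. The log2 fold change was -3.87 ± 0.93 (standard error, SE; n = 3 against 4 mice; FDR = 0.0535), a 14.6-fold lower level. The unsorted cell suspension (Cell-Input, n = 4) held 172 to 363 CPM, so autoMACS alone already lay far under the suspension. *Epas1*, on chromosome 17 at 86753864-86833410, encodes the hypoxia-inducible factor HIF-2 alpha, which is abundant in endothelium. It was at 21.03, 39.4, 33.8, and 17.0 CPM in autoMACS-Input and at 3.66, 1.59, and 4.35 CPM in autoMACS to Tyto-Input. Its log2 fold change was -3.17 ± 0.64 (SE; FDR = 0.0233). *Epas1* was also lower than in cells sorted by the Tyto alone (6.69 to 26.9 CPM, n = 5), by 2.47 ± 0.62 on the log2 scale (SE; FDR = 0.0812).

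Further endothelial genes follow, most of them chosen after their values were seen. *Ptprb* encodes the vascular endothelial phosphatase VE-PTP and *Tek* encodes the angiopoietin receptor TIE2, which VE-PTP acts on. *Ptprb* was at 8.38, 13.9, 20.2, and 5.36 CPM in autoMACS-Input and at 0.837, 0.177, and 1.79 CPM in autoMACS to Tyto-Input, a log2 fold change of -3.78 ± 0.83 (SE; FDR = 0.0318). *Tek*, named after its values were seen, had 45, 115, 49, and 28 counts in autoMACS-Input and 2 counts in each of the 3 autoMACS to Tyto-Input libraries (log2 fold change -4.49 ± 0.88, SE; FDR = 0.022). These genes separated the groups in every library. Of other endothelial genes named after their values were seen, *Tie1*, the partner of TIE2, had a log2 fold change of -3.58 ± 0.96 (FDR = 0.0795), *Nos3*, the endothelial nitric oxide synthase, -3.98 ± 0.97 (FDR = 0.055), and *Vwf*, von Willebrand factor, -2.38 ± 0.64 (FDR = 0.0806). The organic anion transporters of brain capillaries *Slco1c1* (-4.26 ± 1.02, FDR = 0.0532) and *Slco1a4* (-3.95 ± 0.85, FDR = 0.0303) were also called lower. So was *Id3*, an inhibitor of basic helix-loop-helix factors, at -2.80 ± 0.53 (FDR = 0.0201). *Slco1c1*, *Slco1a4*, and *Id3* are on none of the lists. The VEGF receptor gene *Flt1* was at 10.6 to 18.2 CPM against 2.66 to 6.01 CPM, a log2 fold change of -1.96 ± 0.60 that missed the threshold (FDR = 0.117) and passed it with the animals as pairs (-1.90 ± 0.29, FDR = 0.00779). *Ptrf*, which encodes the caveolar coat protein cavin-1 and is on none of the lists, fell from 8.53, 18.5, 24.8, and 14.8 CPM to 4.92, 2.83, and 6.26 CPM (log2 fold change -1.85 ± 0.40, SE; FDR = 0.0304). Each of *Cldn5*, *Epas1*, *Ptprb*, *Ptrf*, *Tek*, *Tie1*, *Nos3*, *Vwf*, *Slco1c1*, and *Slco1a4* was called with the animals as pairs and lost its call when autoMACS to Tyto-Input of animal 67 or 73 was left out, although its sign did not change. The calls of *Cldn5*, *Ptprb*, *Tie1*, *Nos3*, and *Vwf* were also lost without autoMACS to Tyto-Input of animal 66, those of *Tie1* and *Vwf* without autoMACS-Input of animal 67, and that of *Tie1* without autoMACS-Input of animal 72. That of *Id3* was lost without autoMACS to Tyto-Input of animal 67.

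**Figure D2:**
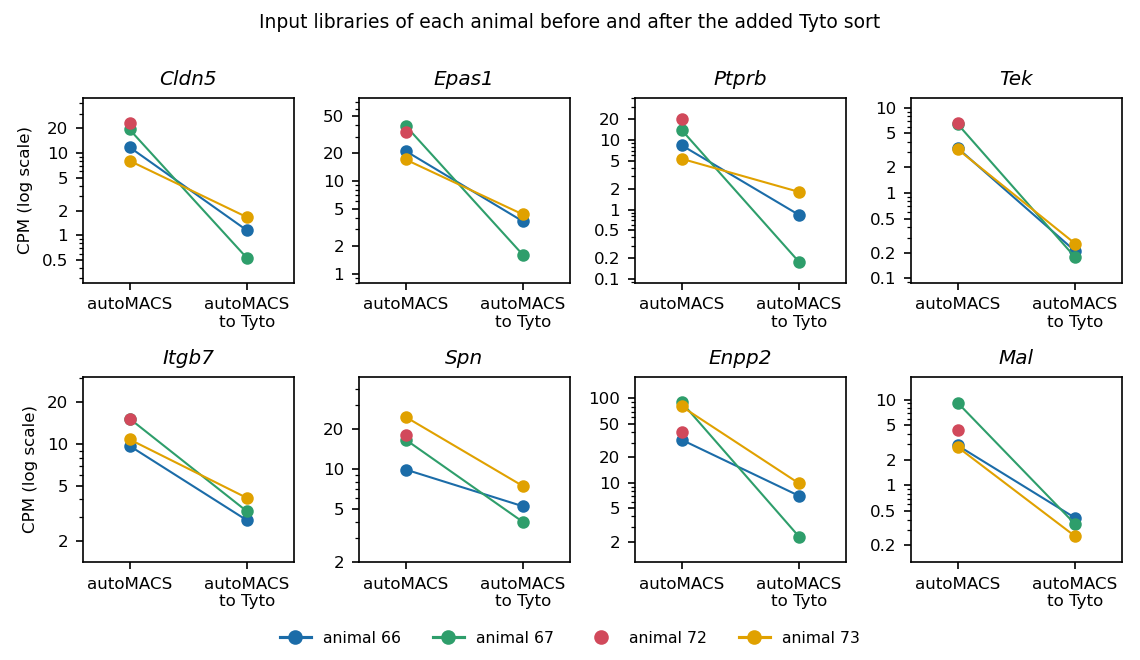
CPM on a log scale (y axis) of 8 genes in the 4 autoMACS-Input and the 3 autoMACS to Tyto-Input libraries, with the libraries of a mouse joined by a line and animal 72, which has only the first, as a single point. All 3 lines fall in every panel, and the groups do not overlap for any of the 8 genes.

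Few epithelial, mural, and glial genes passed the test. The choroid plexus is the epithelium that makes cerebrospinal fluid, and its cells adjoin border macrophages. Of 9 ependymal and choroid plexus genes, 0 were called in the comparison of 3 with 4 libraries, while 4 of the 9 had all 3 autoMACS to Tyto-Input libraries lowest and 4 of 6 (*Ttr*, *Enpp2*, *Folr1*, and *Kl*) were called lower with the animals as pairs. The median log2 fold change of the list was -3.17, and -1.40 with genes at 0 counts set to their bound. Its summed level was 136 to 355 CPM in autoMACS-Input and 16.9 to 59.6 CPM in autoMACS to Tyto-Input. *Ttr*, which encodes the thyroxine carrier transthyretin, was at 108, 253, 89.4, and 178 CPM in autoMACS-Input and at 47.9, 10.6, and 33.6 CPM in autoMACS to Tyto-Input. Its log2 fold change was -2.36 ± 1.00 (SE; FDR = 0.219), and -2.61 ± 0.46 as pairs (FDR = 0.0143). *Enpp2*, which encodes autotaxin, was at 32.4, 90.3, 40.6, and 80.5 CPM against 7.01, 2.30, and 9.84 CPM, and was called as pairs (-3.40 ± 0.39, SE; FDR = 0.00256) and not over all libraries (FDR = 0.167). Both genes varied widely between FACSAria-Input libraries (10.5 to 525 CPM for *Ttr* and 2.10 to 247 CPM for *Enpp2*, n = 4).

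Of 12 mural and fibroblast genes 1 was called lower, *Myh11*, the smooth muscle myosin heavy chain (2.70 to 7.57 CPM against 0.531 to 1.28 CPM, log2 fold change -2.37 ± 0.63, FDR = 0.075), and it lost its call as pairs (FDR = 0.112). It also lost it without any library of autoMACS to Tyto-Input, or without autoMACS-Input of animal 67 or 72, as did *Mal*, described next. The median log2 fold change of the mural list was -0.26, and it was 0.065 as pairs and 0.195 without autoMACS-Input of animal 72, which turned the direction. Its sums overlapped (23.8 to 74.3 and 21.1 to 54.1 CPM). Of 194 oligodendrocytic markers 1 was called lower, which is near the 0.677% of all genes. As pairs 5 of 120 were, beside 0.706% of all genes. The median of the list was -0.52, and it was -0.42 with genes at 0 counts set to their bound and -0.09 as pairs. The gene called over all libraries was *Mal*, which encodes a myelin proteolipid, at 2.92, 9.19, 4.41, and 2.80 CPM against 0.418, 0.354, and 0.256 CPM (log2 fold change -3.83 ± 1.10, SE; FDR = 0.0991). *Mbp*, which encodes myelin basic protein, was at 68.6 to 113 CPM against 61.6 to 76.3 CPM and was not called (FDR = 0.7).

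Of 138 astrocytic markers 1 (*Scara3*) was called lower, which is near the 0.677% of all genes. As pairs 4 of 84 were, among them *Sparcl1* and *Fabp7*, beside 0.706% of all genes. The glutamate transporter gene *Slc1a2* was at 6.59 to 10.0 CPM against 3.28 to 7.74 CPM, a difference within the spread of the libraries (log2 fold change -0.54 ± 0.50, FDR = 0.568). All 8 oligodendrocyte progenitor genes had a negative log2 fold change, beside 52.9% of all genes, and 0 were called. Of 97 neuronal markers 0 were called, and *Snap25*, a synaptic vesicle fusion protein gene, was at 2.91 to 7.48 CPM against 4.09 to 4.92 CPM. Summed over their lists, the astrocytic markers (4134 to 5970 against 4579 to 6353 CPM) and the oligodendrocytic markers (3563 to 4224 against 4115 to 4277 CPM) overlapped between groups.

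**Figure D3:**
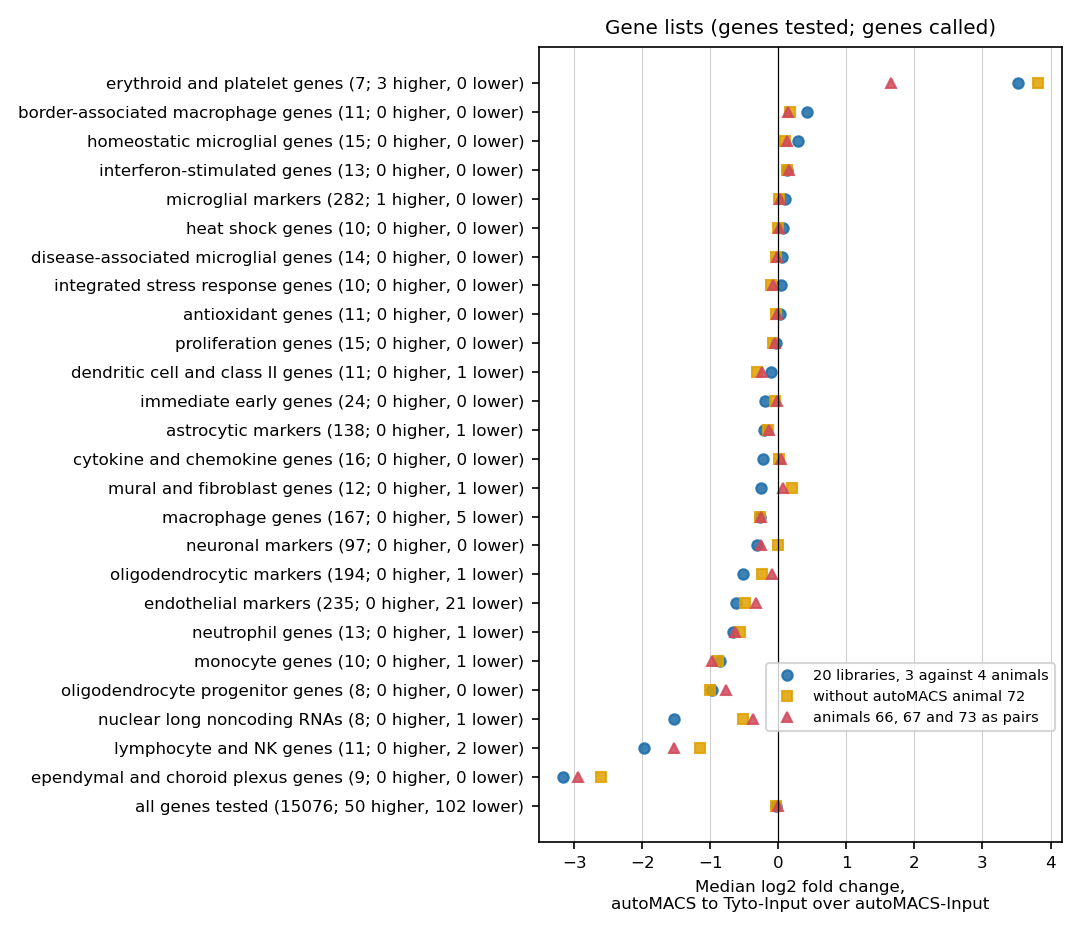
Median log2 fold change, autoMACS to Tyto-Input over autoMACS-Input, of each gene list (x axis) in the fit of all Input libraries (circles), without autoMACS-Input of animal 72 (squares), and with animals 66, 67, and 73 as pairs (triangles). Ependymal and choroid plexus, lymphocyte and NK, oligodendrocyte progenitor, monocyte, neutrophil, and endothelial lists have negative medians in all 3 fits. So do the oligodendrocytic, astrocytic, macrophage, dendritic cell, nuclear long noncoding RNA, immediate early, and proliferation lists, and all genes tested. The microglial marker list lies near 0, and the homeostatic list is at 0.292, 0.104, and 0.125 in the 3 fits in the order given. The erythroid list is high through 1 library.

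Genes of leukocytes other than microglia were also among those called lower. Of 11 lymphocyte and natural killer cell genes, 2 were called lower, beside 0.677% of all genes. A negative log2 fold change was found in 10, beside 52.9% of all genes. *Gzma*, the granzyme of cytotoxic lymphocytes, named after its values were seen, had 45, 91, 46, and 17 counts in autoMACS-Input and 2, 2, and 6 counts in autoMACS to Tyto-Input (log2 fold change -3.47 ± 0.77, SE; FDR = 0.0423). It passed the count filter only through autoMACS-Input, the group where it was higher. The filter therefore favoured its fall and its lack of overlap, which are no support of their own. The counts of 2 called and 10 negative genes of this list include it. How the other members passed the filter is not given here. The IL-2 receptor gene *Il2rb*, chosen in the same way, had 17, 26, 22, and 22 counts against 4, 0, and 3 (-2.95 ± 0.83, SE; FDR = 0.0905), and *Cd79a*, the signalling chain of the B cell receptor, had 12, 21, 6, and 14 counts against 2, 2, and 0 (-2.95 ± 0.76, SE; FDR = 0.068). As pairs, *Gzma* was called (FDR = 0.0372), and *Il2rb* (FDR = 0.117) and *Cd79a* (FDR = 0.118) were not. For none of the 3 genes did the groups overlap, and levels reached at most 6.14 CPM in *Gzma* and under that in the others. Each call was lost when any library of autoMACS to Tyto-Input was left out, and that of *Il2rb* also without autoMACS-Input of animal 72 or 73. *Il2rb* is on none of the lists, so it is not among the 2 list members counted above.

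Of 167 macrophage genes collected by the study from monocytes, infiltrating cells, and border macrophages, 5 were called lower and 0 higher, with a median log2 fold change of -0.27. As pairs, 9 of 164 were called lower and 1 higher. Of all genes 0.677% were called lower, and as pairs 0.706% lower and 0.46% higher. *Itgb7*, on chromosome 15 at 102215995-102231935, encodes the integrin chain that homes lymphocytes and some myeloid cells to mucosa. It was at 9.73, 15.3, 15.1, and 10.8 CPM in autoMACS-Input and at 2.82, 3.28, and 4.09 CPM in autoMACS to Tyto-Input (log2 fold change -1.91 ± 0.38, SE; FDR = 0.022). *Spn* encodes the leukocyte sialoglycoprotein CD43, and was at 9.88, 16.6, 18.0, and 24.6 CPM against 5.23, 3.98, and 7.41 CPM (-1.64 ± 0.38, SE; FDR = 0.0425). *S100a6* encodes a calcium-binding protein of monocytes and many other cells, and was at 4.57, 9.41, 9.35, and 6.99 CPM against 3.14, 1.86, and 2.81 CPM (-1.55 ± 0.34, SE; FDR = 0.0318). In each of these genes every autoMACS to Tyto-Input library was lower than every autoMACS-Input library, and each call held as pairs. *Cyfip2*, an actin regulator of the WAVE complex that is on none of the leukocyte lists, changed by a like amount (-1.41 ± 0.30, SE; FDR = 0.0287), from 5.61, 8.29, 5.48, and 8.62 CPM to 2.41, 2.30, and 3.32 CPM. The calls of all 4 genes were lost without autoMACS to Tyto-Input of animal 67 or 73, and those of *Spn* and *Cyfip2* also without that of animal 66.

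Among monocyte genes (1 of 10 lower, median -0.86), *Ace* and *Treml4* were listed as markers of nonclassical monocytes. *Ace*, the angiotensin-converting enzyme gene, was at 5.88 to 23.9 against 3.36 to 10.4 CPM, and *Treml4* at 1.47 to 8.04 against 1.15 to 2.72 CPM. Both were called lower as pairs (-1.53 ± 0.27, FDR = 0.0152, and -1.67 ± 0.43, FDR = 0.0723) and not over all libraries (FDR = 0.313 and 0.214). In Cell-Input, however, *Ace* was at 67.5 to 195 CPM and *Treml4* at 0.292 to 0.360 CPM. In FACSAria-Input *Ace* was highest in animal 991 (14.6 CPM), as were the choroid plexus genes *Ttr* and *Enpp2*. Which cells gave the *Ace* reads was not tested. Of 13 neutrophil genes 1 was called lower, *Cxcr2*, whose call was lost without autoMACS-Input of animal 72 and as pairs. A negative log2 fold change was found in 11 of the 13, beside 52.9% of all genes. The list's median log2 ratio, autoMACS to Tyto-Input over autoMACS-Input of the same mouse, was -0.55, -1.95, and 1.03 in animals 66, 67, and 73, so that the animals differed in direction. The calgranulin genes *S100a8* (18.3 to 41 against 8.06 to 38.4 CPM) and *S100a9* (29.7 to 98.6 against 10.3 to 64.3 CPM) overlapped between groups and were not called. Of 11 dendritic cell and class II genes 1 was called lower, the cytokine receptor gene *Flt3*, at 2.92 to 4.66 CPM against 0.384 to 1.86 CPM (-1.56 ± 0.45, FDR = 0.0967, and FDR = 0.196 as pairs), which was called in 1 of the 7 fits that left out a library. None of the 11 border-associated macrophage genes was called by edgeR. The scavenger and hyaluronan receptor genes *Mrc1* (162 to 504 against 357 to 683 CPM), *Cd163* (34.9 to 158 against 96.8 to 263 CPM), and *Lyve1* (10.6 to 74.6 against 45.0 to 111 CPM) overlapped, with FDR = 0.371, 0.376, and 0.388. For each of these 3 genes, autoMACS-Input of animal 72 was lowest and autoMACS to Tyto-Input of animal 73 was highest. Without those 2 libraries their log2 fold changes were -0.03, -0.06, and -0.04, which turned the direction.

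Microglial transcripts were abundant in every library of both groups. Their sums did not overlap between groups, and animal 72 was lowest in both lists. The microglial markers summed to 170300 to 219100 CPM in autoMACS-Input against 222100 to 231400 CPM. The homeostatic genes summed to 26950 to 49250 against 50630 to 53450 CPM. All 3 autoMACS to Tyto-Input libraries were highest for 14.2% of the markers, beside 6.87% of all genes. They were lowest for 1.8%, beside 5.94% of all genes. Of 282 microglial markers 1 was called, *Rel*, the NF-kappa B subunit c-Rel (log2 fold change 1.20 ± 0.26, SE; FDR = 0.0325), which lost its call as pairs. A single call in 282 is near the 0.332% of all genes called higher. The median of the microglial list was 0.09, and 0.03 as pairs. *Itgam*, the antigen of the beads and of the gate, was at 2288, 2194, 1493, and 2385 CPM in autoMACS-Input and at 2670, 2729, and 2924 CPM in autoMACS to Tyto-Input. All 3 libraries sorted again were above all 4 sorted on beads only, but the log2 fold change of 0.41 ± 0.13 (SE; FDR = 0.131) was not called, and as pairs it was 0.27 ± 0.06 (FDR = 0.0437), under the fold change threshold. *Ptprc* was at 446 to 550 CPM and at 460 to 494 CPM (-0.06 ± 0.09, FDR = 0.742). The fractalkine receptor gene *Cx3cr1* was at 2259 to 3754 CPM and at 3545 to 3961 CPM (0.25 ± 0.14, FDR = 0.329). The homeostatic genes *P2ry12*, a purinergic receptor (0.39 ± 0.20, FDR = 0.302), *Tmem119*, a surface protein of microglia (0.25 ± 0.18, FDR = 0.452), and *Siglech*, a sialic acid-binding lectin (0.20 ± 0.13, FDR = 0.382), overlapped between groups. Of 15 homeostatic genes 1 had a negative log2 fold change, beside 52.9% of all genes, and 0 were called. In each of *Itgam*, *Cx3cr1*, *P2ry12*, *Tmem119*, and *Siglech* autoMACS-Input of animal 72 was the lowest of the 7 libraries.

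Genes that microglia induce when a brain is dissociated did not pass the test in either direction. None of 24 immediate early, 16 cytokine and chemokine, 10 heat shock, 10 integrated stress response, 11 antioxidant, or 13 interferon-stimulated genes was called by edgeR. Their medians were -0.19, -0.22, 0.07, 0.04, 0.02, and 0.12 on the log2 scale, and as pairs -0.02, 0.05, 0.02, -0.08, -0.02, and 0.16. The AP-1 genes *Fos*, at 3376 to 4046 CPM against 3602 to 4221 CPM, and *Jun*, at 5170 to 5860 CPM against 5041 to 5969 CPM, were high in both groups and differed by 0.06 ± 0.17 and -0.03 ± 0.15 (SE). The stress factor gene *Atf3* was at 1067 to 1940 CPM against 980 to 1244 CPM. The chemokine genes *Ccl3* (223 to 619 against 263 to 355 CPM) and *Ccl4* (188 to 755 against 217 to 272 CPM) and the cytokine gene *Il1b* (80.5 to 315 against 64.2 to 108 CPM) overlapped. In all 4 genes autoMACS-Input of animal 72 was the highest library. Of 14 disease-associated microglial genes (median 0.05) and 15 proliferation genes (-0.04) 0 were called over all libraries. As pairs 1 of the former was, the secreted phosphoprotein gene *Spp1*, at 19.8, 22.6, 27.5, and 82.7 CPM against 6.80, 11.2, and 33.4 CPM (-1.28 ± 0.14, FDR = 0.00207). *Apoe*, the apolipoprotein gene of glia, was at 2398 to 4610 CPM against 3281 to 4879 CPM (0.15 ± 0.20, FDR = 0.723).

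Of the 50 genes that rose after the second sort 46 were on none of the lists, as were 68 of the 102 that fell. A mean of at least 5 CPM was found in 42 of the 50 and in 27 of the 102. *Polr2a*, on chromosome 11 at 69734410-69758223, encodes the largest subunit of RNA polymerase II. It was at 93.3, 76.1, 24.4, and 86.7 CPM in autoMACS-Input and at 205, 225, and 245 CPM in autoMACS to Tyto-Input. The groups did not overlap, and the lowest value was that of animal 72. The log2 fold change was 1.68 ± 0.26 (SE; FDR = 0.00764), and 1.39 ± 0.10 as pairs (FDR = 0.000177). *Hivep3*, on chromosome 4 at 119814678-120135411, encodes a zinc finger protein that binds kappa B-like sequences, and was at 29.4, 20.4, 17.8, and 33.1 CPM against 64.9, 75.2, and 73.5 CPM (1.50 ± 0.19, SE; FDR = 0.00239). *Inpp4b*, a phosphoinositide phosphatase gene, was at 26.1, 23.1, 15.8, and 25.98 CPM against 46.7, 53.3, and 55.5 CPM (1.18 ± 0.17, SE; FDR = 0.00419). These 3 genes were called in every fit that left out a library. *Cbl*, which encodes a ubiquitin ligase of receptor signalling, was at 69.1, 50.9, 14.8, and 54.6 CPM against 123, 155, and 165 CPM (1.63 ± 0.31, SE; FDR = 0.0201). The transcriptional repressor gene *Spen* was at 41.1, 42.1, 42.2, and 57.9 CPM against 75.1, 111, and 109 CPM (1.10 ± 0.18, SE; FDR = 0.0128). The gene *9930111J21Rik1* was at 46.2, 32.8, 12.3, and 48.7 CPM against 85.3, 115, and 123 CPM (1.61 ± 0.29, SE; FDR = 0.0198). The neuron navigator gene *Nav3* was at 85.8, 63.4, 31.1, and 76.4 CPM against 135, 175, and 151 CPM (1.25 ± 0.24, SE; FDR = 0.0218). *Cbl* and *Nav3* lost their calls without autoMACS to Tyto-Input of animal 67, *Cbl*, *Nav3*, *Spen*, and *9930111J21Rik1* without that of animal 73, and *Nav3* without autoMACS-Input of animal 72. In each of the genes of this paragraph all 3 libraries sorted again were above all 4 that were not.

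For *Nup98*, a nucleoporin (1.13 ± 0.17, FDR = 0.00741), *Atn1*, the transcriptional corepressor atrophin-1 (1.12 ± 0.21, FDR = 0.0201), *Med12*, a subunit of the Mediator kinase module (1.04 ± 0.20, FDR = 0.022), and *Tmem131*, a factor in collagen secretion (1.07 ± 0.22, FDR = 0.0233), the groups also did not overlap. As pairs their log2 fold changes were 0.93, 0.89, 0.82, and 0.81, with FDR from 0.00213 to 0.00624, so that they no longer passed the fold change threshold. They did not pass it without autoMACS-Input of animal 72 either, and *Atn1*, *Med12*, and *Tmem131* were not called without autoMACS to Tyto-Input of animal 67 or 73. Across the genes called higher, autoMACS-Input of animal 72 was the lowest of its group's 4 libraries in 36 of 50. *Zfhx2as*, an antisense transcript named after its values were seen, had 0, 2, 0, and 0 counts in autoMACS-Input and 8, 10, and 12 counts in autoMACS to Tyto-Input (FDR = 0.015, and 0.0705 as pairs). It had between 0.502 and 1.65 CPM in every Tyto-, FACSAria-, and Cell-Input library.

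The length of the transcripts, which the selection of genes did not use, differed between the genes called higher and the others. With the longest transcript of each gene in the annotation, the median length was 6877 nucleotides for 45 genes called higher that had a length, 3380 for 95 genes called lower, and 3120 for all 14134. With all genes split into 5 bins of about equal size by length, the bin of the longest transcripts held 30 of the 45. Over all genes, the median log2 fold change went from -0.13 in the shortest bin, through -0.06, -0.02, and 0.03, to 0.10 in the longest. The same order was found as pairs (-0.10 to 0.12) and without autoMACS-Input of animal 72 (-0.12 to 0.09). Against Tyto-Input the medians of the same bins went from 0.04 in the shortest to -0.05 in the longest. The part of transcript length in these calls was not tested.

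Levels of these genes in cells sorted by the Tyto or the FACSAria without beads stand beside them. *Polr2a* was at 173 to 248 CPM in Tyto-Input and at 237 to 284 CPM in FACSAria-Input, and at 76.5 to 95.3 CPM in the unsorted suspension. Against Tyto-Input, the autoMACS to Tyto-Input libraries differed by 0.03 ± 0.25 on the log2 scale (SE; FDR = 0.996). *Hivep3* was at 51.2 to 88.4 CPM in Tyto-Input, at 83.9 to 88.8 CPM in FACSAria-Input, and at 13.8 to 20.04 CPM in Cell-Input. *Spen* was higher in Cell-Input (63.3 to 81.9 CPM) than in autoMACS-Input. The TRAP fractions of the same sorts were on the same sides, with *Polr2a* at 43.2 to 82.2 CPM in autoMACS-TRAP (n = 4) and at 215 to 308 CPM in autoMACS to Tyto-TRAP (n = 3). *Hivep3* was at 11.2 to 25.5 CPM and at 47.5 to 54.01 CPM in these fractions, which come from the same sorted cells and are no independent samples.

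**Figure D4:**
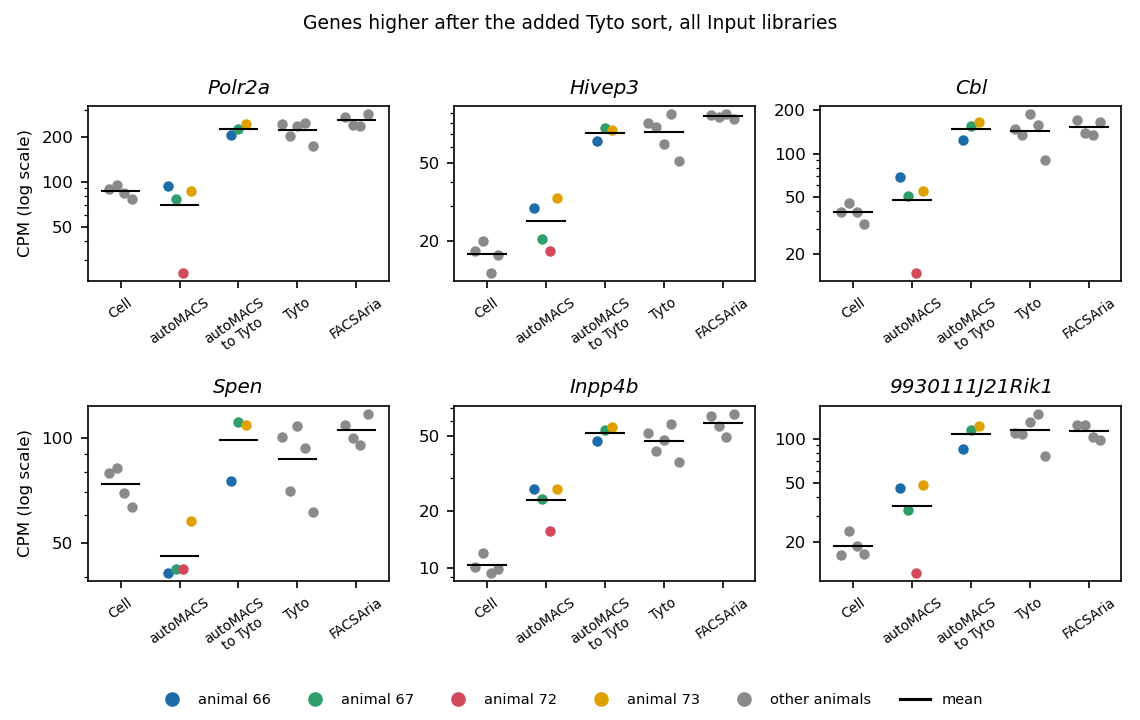
CPM on a log scale (y axis) of 6 genes called higher in all Input libraries, by group (x axis), with animals of the bead sorts coloured, other animals in grey, and group means as bars. The 3 autoMACS to Tyto libraries lie above the 4 autoMACS libraries in every panel and within or near the range of Tyto and FACSAria libraries.

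The calls of several genes depended on autoMACS-Input of animal 72. *Malat1*, the nuclear noncoding RNA that is retained with chromatin, was at 130, 170, 6211, and 339 CPM in autoMACS-Input and at 134, 89.7, and 103 CPM in autoMACS to Tyto-Input. The value of animal 72 was far above that of the other 6 libraries, and the remaining libraries of the groups overlapped. Its log2 fold change of -3.98 ± 1.00 (SE; FDR = 0.0646) was -0.99 without that library and -0.87 ± 0.24 as pairs (FDR = 0.0908), both under the fold change threshold. *Neat1*, the scaffold RNA of paraspeckles, was at 551, 659, 2140, and 782 CPM against 453, 449, and 448 CPM, without overlap, and was not called (-1.20 ± 0.36, FDR = 0.115). Of 8 nuclear long noncoding RNAs 1 was called lower, with a median of -1.53 that was -0.52 without animal 72 and -0.37 as pairs. The chemokine receptor gene *Cxcr2* was at 12.2, 9.58, 84.95, and 10.5 CPM against 7.53, 5.40, and 5.88 CPM (-2.21 ± 0.62, FDR = 0.0931). The centrosomal gene *Fgfr1op* was at 28.5, 24.5, 73.99, and 31.8 CPM against 22.9, 17.4, and 18.5 CPM (-1.01 ± 0.27, FDR = 0.0741). The uncharacterized *1700113A16Rik* was at 19.2, 18.3, 76.8, and 20.04 CPM against 15.9, 12.5, and 9.33 CPM (-1.40 ± 0.39, FDR = 0.0888). Animal 72 was highest in each of these genes. As pairs the log2 fold changes of the last 3 were -0.79, -0.53, and -0.63, under the threshold. *Ahnak*, a giant scaffold protein gene on the endothelial list, was at 31.8, 49.1, 70.7, and 46.3 CPM against 22.0, 22.0, and 29.9 CPM (-1.01 ± 0.25, FDR = 0.0654), without overlap. It was at -0.82 without autoMACS-Input of animal 72 and at -0.79 as pairs, both under the fold change threshold. Among the 102 genes called lower, animal 72 was the highest autoMACS-Input library in 57, and in 17 it was over 3 times every other one. Without that library 45 genes were called lower and 25 higher, and 61 of these 70 were among the 152. The part of its nuclear RNA or its depth in these values was not tested.

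The haemoglobin genes were called higher through the library of animal 73. *Hba-a1*, which encodes alpha-globin, was at 15.4, 13.6, 17.6, and 10.3 CPM in autoMACS-Input and at 11.2, 6.82, and 669 CPM in autoMACS to Tyto-Input. Animals 66 and 67 were lower after the second sort and animal 73 was higher. The log2 fold change of 4.01 ± 0.96 (SE; FDR = 0.0533) became -0.68 without that library, and 1.48 ± 1.11 as pairs (FDR = 0.606). *Hba-a2* (96.8 CPM) and *Hbb-b1* (422 CPM) were high in the same library and at or under 2.09 and 7.22 CPM in the other 2. The 7 erythroid and platelet genes tested, 3 of them called higher, were at a median of 3.52 on the log2 scale, and at -0.47 without this library and animal 72 of autoMACS-Input. The globin genes have near-identical copies, so the share of reads given to each is uncertain. For scale, *Hba-a1* was at 1906 to 2983 CPM in the unsorted suspension and at 103 to 237 CPM in Tyto-Input.

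Transcripts of liver and fat cells, listed after their values were seen, varied widely between the animals of a group. *Alb*, which encodes serum albumin, was at 14.2, 16.7, 125, and 130 CPM in autoMACS-Input, at 534, 94.3, and 168 CPM in autoMACS to Tyto-Input, and at 3.24 to 8.95 CPM in the unsorted suspension. It was higher after the second sort in animals 66, 67, and 73, and the ranges of the groups overlapped. *Alb* was called with the animals as pairs (2.57 ± 0.67, SE; FDR = 0.0738) and not over all libraries (FDR = 0.21), as were 8 of 18 liver genes (median 1.95, and 2.49 as pairs), which include *Apoa1* (2.89 ± 0.67, FDR = 0.0463) and stand beside 0.46% of all genes called higher as pairs. The same held for 5 of 9 adipose genes (median 0.70, and 1.57 as pairs), among them *Car3* (1.73 ± 0.36, FDR = 0.0296) and *Cfd* (1.57 ± 0.42, FDR = 0.0841). The complement gene *C3* was called higher as pairs (12.8, 16.8, 31.9, and 41.9 CPM against 87.0, 29.6, and 63.2 CPM, log2 fold change 1.35 ± 0.32, FDR = 0.0517, and FDR = 0.165 over all libraries). The summed level of the liver list was 22.2 to 207 CPM in autoMACS-Input, 147 to 851 CPM in autoMACS to Tyto-Input, and 148 to 1066 CPM in FACSAria-Input.

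**Figure D5:**
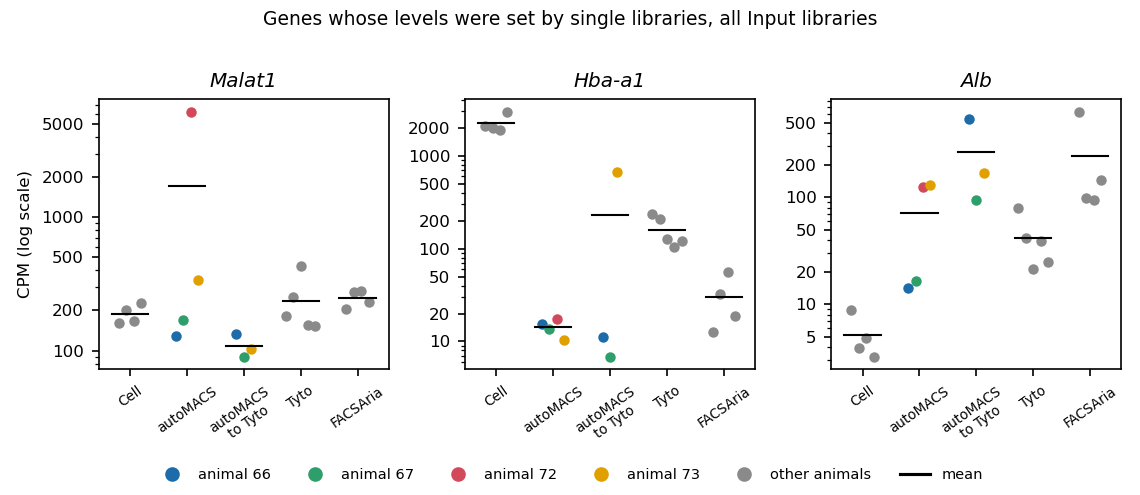
CPM on a log scale (y axis) of *Malat1*, *Hba-a1*, and *Alb* in all Input libraries, by group (x axis), coloured by animal in the bead sorts, with group means as bars. *Malat1* is high in animal 72 of autoMACS, *Hba-a1* in animal 73 of autoMACS to Tyto, and *Alb* varies between animals within both groups.

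The cells sorted again were last set against cells that went from the suspension to the Tyto without beads (Tyto-Input, n = 5, no mouse in common). With no mouse in both groups, the bead step and differences between animals cannot be told apart. Of 15076 genes, 172 (1.14%) were called, with 17 (0.113%) higher and 155 (1.03%) lower in autoMACS to Tyto-Input. Leaving out autoMACS to Tyto-Input of animal 66, 67, or 73 left 42, 34, and 75 calls, and leaving out Tyto-Input of animal 991 left 108. The lists with the most genes lower were glial. Called lower were 46 of 194 oligodendrocytic markers (median log2 fold change -1.35) and 28 of 138 astrocytic markers (-1.33), beside 2 of 8 oligodendrocyte progenitor genes (-2.37) and 4 of 235 endothelial markers (-0.25). *Mal* was at 7.62 to 43.3 CPM in Tyto-Input against the 0.256 to 0.418 CPM given above (log2 fold change -5.77 ± 0.96, SE; FDR = 0.00746). *Slc1a2* was at 20.2 to 97.5 CPM in Tyto-Input and differed by -3.33 ± 0.49 (SE; FDR = 0.00406), and *Aldoc*, the aldolase gene of astrocytes, was at 11.2 to 45.0 CPM against 4.09 to 6.48 CPM (-2.41 ± 0.40, SE; FDR = 0.00746). Against autoMACS-Input (4.78 to 9.28 CPM) the last gene had not been called (-0.65 ± 0.42, FDR = 0.403). Of 282 microglial markers 0 were called by edgeR against Tyto-Input, with a median of 0.03, and of 167 macrophage genes 1 was called higher, *C3* (1.62 ± 0.41, FDR = 0.0792).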

How the data were processed

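Stranded poly(A) libraries of the Input fraction were sequenced by the authors, who processed the reads in Strand NGS, aligned them to mm10, removed duplicates, and counted reads per gene. The deposited expected counts list 15919 genes and are mostly not whole (34.5% of values were), so they were rounded. The submitters' processing notes name DESeq2 and mm10. The normalized log2 values that the authors deposited were not used. Dates had replaced 23 gene symbols, which were restored from identifiers.

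All 20 Input libraries of the sort comparison (Cell, autoMACS, autoMACS to Tyto, Tyto, FACSAria) entered 1 fit in which the only factor was the group, after TMM normalization, on 15076 genes with more than 5 counts in every library of at least 1 group. Tests were edgeR 4.0.16 quasi-likelihood tests in R 4.3.3, called at an FDR under 0.1 and a fold change above 2. FDR and ± after a log2 fold change are the Benjamini-Hochberg adjusted p and the SE, the size of the log2 fold change over the root of F. CPM are TMM-normalized, and totals are sums of rounded counts over listed genes. Depth sets the counting error only. As pairs, animals 66, 67, and 73 were fitted with the animal as a block on 12179 genes. Pairing comes from the animal number in the sample names. Deviations from the group means correlated within animals at 0.157, 0.042, and 0.216, and between different animals at -0.319 to 0.226 (9703 genes). p-values treat libraries of a mouse in different sorts as independent, except in the paired fit.

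Members and lists were chosen with earlier results of these data known. The 6 longest lists come from the study, the others from knowledge of the cell types, and the liver and adipose lists were made after values were seen. Lists were described by counts and medians, with no test. Named genes were, of called genes with a mean of at least 5 CPM over the 7 libraries, the 10 higher and 10 lower with the smallest p, the 5 higher and 5 lower with the highest mean in the group where they were higher, and 30 fixed genes (29 tested). A few of the fixed genes are not reported here. The genes *Tek*, *Tie1*, *Nos3*, *Vwf*, *Slco1c1*, *Slco1a4*, *Id3*, *Flt1*, *Enpp2*, *Myh11*, *Mal*, *Gzma*, *Il2rb*, *Ace*, *Treml4*, *Flt3*, *Spp1*, *Neat1*, *Zfhx2as*, *Hba-a2*, *Hbb-b1*, *Alb*, *Apoa1*, *Car3*, *Cfd*, *C3*, *Rel*, *Scara3*, and those named only as called on a list were chosen after their values were seen. Transcript lengths came from the GENCODE annotation given (93.8% of genes matched by symbol). The alternatives were DESeq2 1.42.0 size factors and Wald test, other filters, fewer groups, an FDR under 0.05, and leaving out each library. The fit was tested on simulated counts. Some globin and lymphocyte genes, and other members of the lists that the table does not hold, were not analysed here.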

Additional observations from a re-analysis of the deposited data

Results flagged for a closer look

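Of 106 values examined (named genes and list sums in the 4 autoMACS-Input libraries), 18 had a library far from the other 3 by Dixon's ratio, where chance gives about 1 in 20. Groups of 3 were not examined. Animal 72 of autoMACS-Input was the distant library in 14 of the 18. It was highest for *Malat1* (6211 CPM), *Neat1* (2140 CPM), *Atf3* (1940 CPM), *Il1b* (315.2 CPM), *Mbp* (113.1 CPM), *Cxcr2* (84.95 CPM), *1700113A16Rik* (76.8 CPM), and *Fgfr1op* (73.99 CPM), and lowest for *Tmem131* (38.33 CPM). Summed over lists, it was highest for nuclear long noncoding RNAs (9174 CPM), sex-linked genes (607.7 CPM), proliferation genes (390.8 CPM), and neuronal markers (232.3 CPM), and lowest for disease-associated microglial genes (16630 CPM).

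Animal 73 was the distant library for *Spp1* (82.72 CPM) and *Spen* (57.9 CPM), and animal 67 for *Slco1a4* (10.81 CPM) and *Zfhx2as* (0.1121 CPM, 2 counts). All 4 were the highest of the autoMACS-Input libraries. The part of depth in these values was not tested.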

How the results depend on the processing

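The count of genes called in autoMACS to Tyto-Input against autoMACS-Input (152) was 154 with DESeq2 size factors, 132 without a filter, 163 with a filter within both groups, 142 with the replicate block on animals 66, 67, and 73, and 118 with the same 6 libraries without the block. It moved further in other settings, whose causes were not tested. It was 464 by DESeq2's Wald test (68 higher, 396 lower), 73 with the 4 sorted groups only, and 53 at an FDR under 0.05. With only the 2 groups compared, edgeR called 0 genes, with 1164 of 12043 at an unadjusted p under 0.05. Leaving out 1 library gave 7 to 497 calls, and leaving out both deviating libraries, an alternative chosen after seeing the data, gave 27. Against Tyto-Input, the count (172) was 370 by the Wald test, 79 with the 4 sorted groups, 301 with only the 2 groups, 109 at an FDR under 0.05, and 34 to 220 without 1 library.

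Of 832 values of 52 named genes under the alternatives, 677 kept their direction and their side of the threshold, 131 lost their call, 4 gained it, and 20 turned direction. Those that turned, on the log2 scale, were as follows. *Hba-a1* was at -0.681 without autoMACS to Tyto-Input of animal 73 and -0.598 without both deviating libraries. Without both, *Mrc1* was at -0.033, *Cd163* at -0.062, *Lyve1* at -0.035, *Atf3* at 0.012, and *Il1b* at 0.017. *Fos* was at -0.016 without autoMACS to Tyto-Input of animal 67. *Snap25* was at 0.064 with the block, 0.040 with the same libraries unblocked, and 0.023 without both. *Ccl3* was at 0.075 without autoMACS-Input of animal 72, and at 0.112, 0.097, and 0.039 in those 3 fits. *Apoe* was at -0.027 without autoMACS-Input of animal 72, -0.074 without autoMACS to Tyto-Input of animal 73, and at -0.018, -0.005, and -0.230 in the same 3 fits. Leaving out 1 library at a time gave -0.681 to 4.584 for *Hba-a1*, -0.016 to 0.092 for *Fos*, -0.438 to 0.075 for *Ccl3*, and -0.074 to 0.29 for *Apoe*. None of these genes but *Hba-a1* had been called. Of 416 list values, 294 moved by less than the spread between replicates. Few counts limit genes under about 1 CPM. Of the 102 genes called lower, 11 had 0 counts in all 3 autoMACS to Tyto-Input libraries, and 33 had at most 3 in each.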
